A study of Mus musculus with 12 samples.

Results

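Aminoacyl tRNA synthetase genes were followed in fibroblasts of mouse lungs with and without metastasis. The members are the genes whose symbol has the form of a synthetase symbol, a letter followed by "ars" with or without a 1 or 2, together with Farsa, Farsb and Eprs, which gave 37 of the 20606 genes in the table. Of these, 18 encode enzymes of the cytosol, 17 encode enzymes of the mitochondrion, and Gars and Kars each encode both forms of their enzyme.

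The study is about metastasis of breast cancer to the lung and about matrix fibroblasts that express the tryptophan-degrading enzyme Tdo2. It measured polyA RNA in bulk in 4 groups of 3 libraries each. M-MF and N-MF are matrix fibroblasts of mice with lung metastasis and of normal mice, and M-MyoF and N-MyoF are the subgroup abbreviated MyoF from the same kinds of mice. The sources used here do not give the strain, age or sex of the mice, the tumour cells used or the way in which the subgroups were purified. The labels do not tie the libraries of a group to separate mice. P-values therefore reflect the spread between libraries alone, and that spread may be technical.

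An aminoacyl tRNA synthetase joins an amino acid to its matching tRNA, the step that fixes which amino acid a codon stands for. Cells charge tRNAs separately in the cytosol and in the mitochondrion, and most amino acids have a nuclear gene for each place, the mitochondrial one carrying the suffix 2. Several cytosolic enzymes sit together in a multisynthetase complex. In mammals many cytosolic synthetase genes are known targets of Atf4, the transcription factor of the integrated stress response, which is switched on when amino acids run short or proteins misfold. Wars, the cytosolic tryptophanyl synthetase, is also known as an interferon gamma target.

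All 37 members passed the filter on low values, at least 1 FPKM (fragments scaled for transcript length and for all mapped fragments) in at least 3 libraries, as did 13300 genes in all. FPKM carries no read depth, so counting error is unknown and precision was judged from the spread between libraries. Within a group the coefficient of variation of a member had a median of 2.42% in M-MF, 2.86% in N-MF, 3.10% in M-MyoF and 4.48% in N-MyoF, and its highest value was 17.99%, for the mitochondrial prolyl synthetase Pars2 in N-MyoF. Fold changes are differences of mean log2(FPKM + 1), which understate the change of low genes, with a standard error (SE) after the ± sign. A gene passed where limma gave it an adjusted p under 0.05 over all genes tested.

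Markers of several cell types moved with the groups, some up and some down. The 7 fibroblast markers summed to 15270 to 15400 FPKM in M-MF and 21040 to 21270 FPKM in N-MF, and to 2065 to 2088 FPKM in M-MyoF and 3584 to 3640 FPKM in N-MyoF. The 7 matrix fibroblast markers summed to 1597 to 1629 FPKM in M-MF and 5469 to 5665 FPKM in N-MF, and 6 of them were lower in M-MF, among them Inmt (-2.22), Tcf21 (-1.46), Pi16 (-1.13) and Col14a1 (-0.77). In the MyoF libraries these 7 summed to 297 to 303 FPKM in M-MyoF and 664 to 682 FPKM in N-MyoF, and 6 were lower in M-MyoF. The 7 epithelial markers summed to more than the fibroblast markers of the MyoF libraries. They had 15870 to 16390 FPKM in M-MyoF and 18760 to 19250 FPKM in N-MyoF, and none of the 7 was at 0. In the MF libraries they summed to 3026 to 3048 FPKM in M-MF and 2255 to 2306 FPKM in N-MF, with 5 of 7 higher and 2 lower in M-MF. The keratin genes Krt8 (4.73) and Krt18 (4.41) had the largest of these changes. Both rose in M-MyoF as well (4.02 and 3.53), where 2 of the 7 markers were higher, 3 lower and 2 did not pass. The 7 myofibroblast markers summed to 3055 to 3107 FPKM in M-MyoF and 4531 to 4643 FPKM in N-MyoF, against 298 to 303 FPKM in M-MF and 451 to 468 FPKM in N-MF. By gene, 5 of these 7 were higher and 2 lower in M-MF, and 3 were higher and 3 lower in M-MyoF. The 10 neutrophil markers summed to 13250 to 13600 FPKM in M-MyoF and 137 to 151 FPKM in N-MyoF, and to 250 to 259 FPKM in M-MF and 32.2 to 36.9 FPKM in N-MF. Of 7 macrophage markers tested, none was higher, and 3 were lower in M-MF and 4 in M-MyoF. Of 4 T and B cell markers tested, 1 was higher and 1 lower in M-MF, and 2 were higher and 2 lower in M-MyoF. In bulk RNA a change in the number of cells of a type and a change in RNA per cell cannot be told apart.

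Promoters are shown for the members that hold the C/EBP-ATF response element, the DNA word through which Atf4 acts with C/EBP partners, because the stress response that uses it is compared with the synthetases further on. RefSeq promoter windows on GRCm38.p6, from 250 bases before to 50 bases after the annotated start, matched 27 of the 37 members, 13 of them cytosolic or dual and 14 mitochondrial. The 10 not matched, among them Wars, Vars, Cars, Rars, Lars, Nars and Hars, were not searched. A member was counted once if any of its windows held a word, while the share of all promoters counts windows. The 2 shares are therefore not in the same unit. The core TGATGNAA, searched on both strands, was found in 5 of the 27 (18.5%), all 5 cytosolic or dual, and in 3.97% of 32851 promoter windows. They belong to Aars, Gars, Iars, Tars and Yars, the alanyl, glycyl, isoleucyl, threonyl and tyrosyl synthetases. The windows are printed 5′ to 3′ on the gene's strand, with the core or its reverse complement in capitals.
Aars, chr8:111033592-111033891, plus strand: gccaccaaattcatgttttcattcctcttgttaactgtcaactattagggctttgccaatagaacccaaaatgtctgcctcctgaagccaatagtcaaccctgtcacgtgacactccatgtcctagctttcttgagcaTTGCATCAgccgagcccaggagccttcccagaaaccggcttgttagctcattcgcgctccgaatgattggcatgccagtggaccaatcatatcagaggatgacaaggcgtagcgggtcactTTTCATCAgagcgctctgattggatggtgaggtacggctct
Gars, chr6:55037751-55038050, plus strand: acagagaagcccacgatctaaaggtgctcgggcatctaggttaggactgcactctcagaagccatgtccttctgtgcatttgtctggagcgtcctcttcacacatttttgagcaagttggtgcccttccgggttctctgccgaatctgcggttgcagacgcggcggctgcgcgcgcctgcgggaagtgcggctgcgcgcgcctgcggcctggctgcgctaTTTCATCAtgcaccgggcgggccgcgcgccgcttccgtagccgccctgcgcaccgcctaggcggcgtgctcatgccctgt
Iars, chr13:49681880-49682179, plus strand: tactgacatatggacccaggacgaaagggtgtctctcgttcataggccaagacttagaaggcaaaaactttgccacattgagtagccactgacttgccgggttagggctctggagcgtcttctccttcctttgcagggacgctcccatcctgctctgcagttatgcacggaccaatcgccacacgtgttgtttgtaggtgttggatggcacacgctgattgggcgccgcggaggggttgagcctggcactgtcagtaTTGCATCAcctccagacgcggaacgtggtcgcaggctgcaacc
Tars, chr15:11399609-11399908, minus strand: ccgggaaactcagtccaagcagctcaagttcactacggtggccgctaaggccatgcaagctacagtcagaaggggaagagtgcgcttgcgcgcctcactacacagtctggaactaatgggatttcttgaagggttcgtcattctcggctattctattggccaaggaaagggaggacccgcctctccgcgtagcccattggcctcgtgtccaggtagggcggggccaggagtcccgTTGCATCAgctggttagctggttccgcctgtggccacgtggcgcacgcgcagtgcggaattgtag
Yars, chr4:129189653-129189952, plus strand: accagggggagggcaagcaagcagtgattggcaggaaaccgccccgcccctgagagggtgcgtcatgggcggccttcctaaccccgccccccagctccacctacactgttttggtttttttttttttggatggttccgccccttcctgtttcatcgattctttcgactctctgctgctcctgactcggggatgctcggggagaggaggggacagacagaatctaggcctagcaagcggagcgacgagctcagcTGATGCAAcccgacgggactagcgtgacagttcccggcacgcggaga
Aars held the core 2 times, 112 bases before and 9 bases past the start. The core lay 30 bases before the start in Gars, 15 before it in Tars, 7 past it in Iars and 3 past it in Yars. The annotated gene span begins at 111027778 for Aars and at 129189734 for Yars. For both, the annotated start that the window was built around lies inside the span, so these distances are not from its edge. The longer word TGATGCAAT was found in Aars and Iars, 7.41% of the 27 members, and in 0.192% of all windows. TGATGNAAT was in 11.1% of members and 0.965% of windows, and TTGCATCA in 14.8% of members and 0.895% of windows, and these 3 words overlap the core. Of the other words searched, TGACGTCA was in no member and in 1.79% of windows, TGACGT in 14.8% and 7.51%, CACGTG in 18.5% and 7.15%, and the interferon-stimulated response element in 3.70% and 3.44%. TTCNNNGAA was in 11.1% of members and 8.30% of windows, the Nrf1 element of respiratory genes in 18.5% and 6.23%, CCGGAAG in 33.3% and 8.86%, and CCAAT in 48.1% and 37.4%. A match is a description of these letters and not a binding site.

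Synthetase genes covered a wide range of levels, and the mitochondrial ones were the lower class. Gars had the highest mean in 3 groups, with 96.5 ± 2.50 FPKM in M-MF, 45.1 ± 0.967 FPKM in N-MF and 117 ± 1.43 FPKM in M-MyoF (SD, n = 3 each). In N-MyoF the highest was Nars, the cytosolic asparaginyl synthetase, with 47.6 FPKM. Iars was the lowest of the 20 cytosolic or dual genes in every group, with means of 22.1 FPKM in M-MF, 9.29 in N-MF, 31.4 in M-MyoF and 11.8 in N-MyoF. The highest mitochondrial gene was Fars2, the phenylalanyl enzyme, with means of 17.9 FPKM in M-MF, 16.2 in N-MF, 20.1 in M-MyoF and 19.1 in N-MyoF. All 17 mitochondrial genes lay below every cytosolic or dual gene in M-MF and in M-MyoF, and 14 of 17 did in N-MF and in N-MyoF. The lowest members were Mars2, the methionyl enzyme, at 1.80 FPKM in M-MF and 2.14 FPKM in M-MyoF, and Ears2, the glutamyl enzyme, at 1.10 FPKM in N-MF and 1.19 FPKM in N-MyoF. Among the 36 neighbouring pairs in the order of means, the values of 12 pairs overlapped in M-MF, 18 in N-MF, 17 in M-MyoF and 20 in N-MyoF, so much of the fine order lies within the spread.

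**Figure D1:**
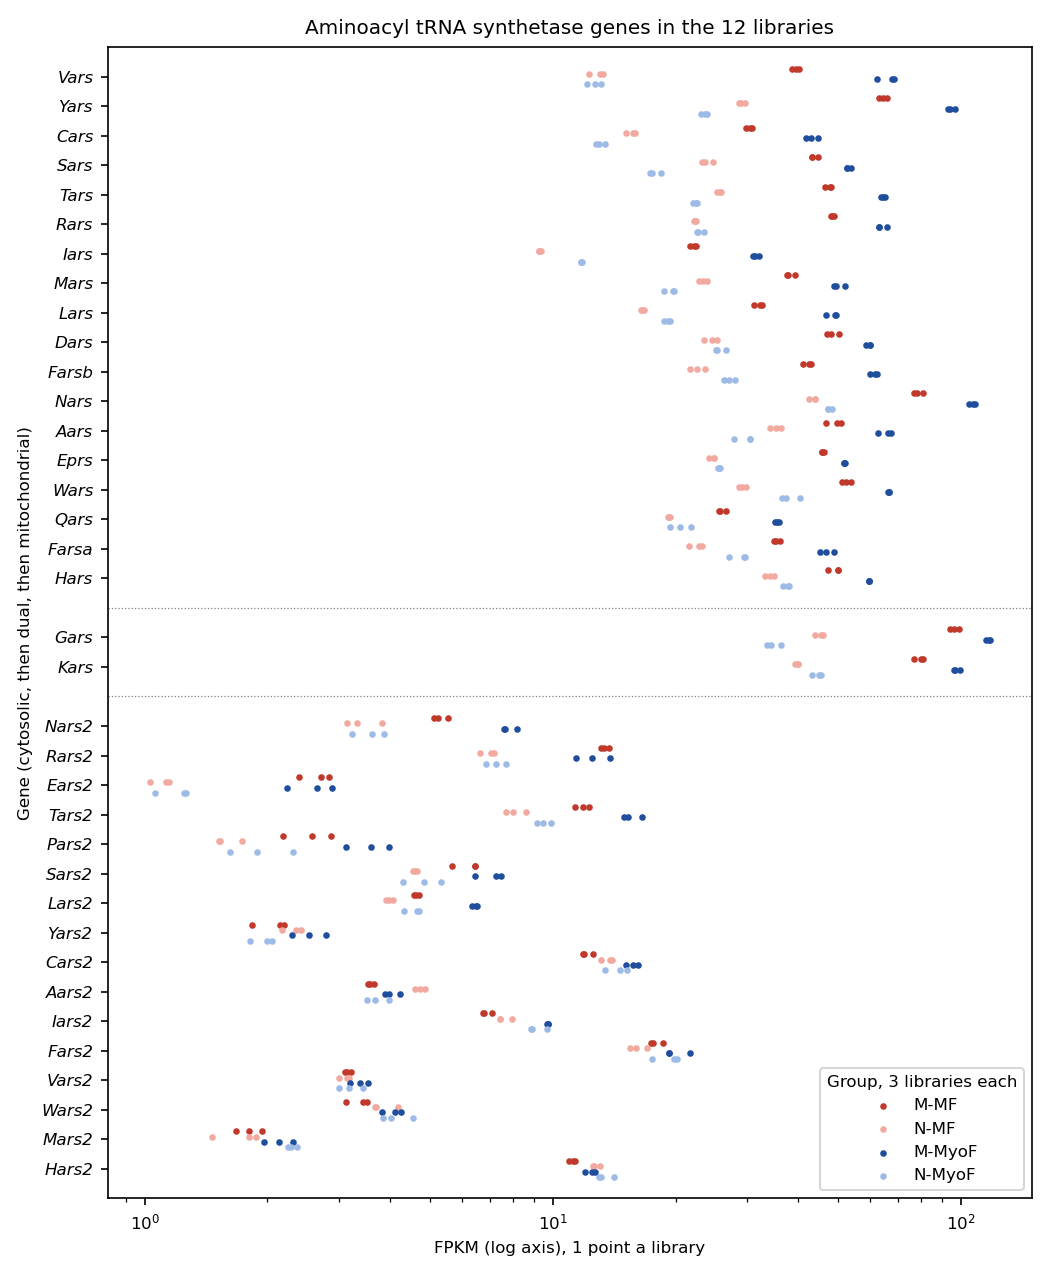
FPKM of 36 of the 37 synthetase genes (rows, in 3 classes separated by dotted lines) in each of the 12 libraries (points, coloured by group) on a log axis. The cytosolic and dual genes have M-MF and M-MyoF points to the right of those of N-MF and N-MyoF, and the 16 mitochondrial genes drawn lie below every cytosolic or dual gene in M-MF and M-MyoF.

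M-MF were set against N-MF to ask how matrix fibroblasts differ between lungs with metastasis and normal lungs. Every cytosolic synthetase gene was higher in M-MF, 18 of 18, as were Gars and Kars, with changes between 0.41 for Qars, the glutaminyl enzyme, and 1.54 for Vars, the valyl enzyme. Mitochondrial genes went both ways, 8 higher, 5 lower and 4 not passing. In all 28 members were higher and 5 lower, where 46.3% of all genes tested were called higher and 31.8% lower. The median change was 0.87 for cytosolic genes and 0.14 for mitochondrial genes, beside 0.08 for all genes. The values of 34 of 37 members did not overlap between the groups, against 79.8% of all genes. On the log2(FPKM + 1) scale 5 members were at least 2-fold higher, all cytosolic or dual, where 9.32% of all genes were. By the plain ratio of means 6 members were, the mitochondrial Ears2 among them.

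Vars had the largest change. It had 40.2, 38.6 and 39.4 FPKM in the M-MF libraries, against 13.3, 13.0 and 12.3 FPKM in N-MF. All 3 M-MF values were above all 3 N-MF values by a wide gap, and the log2 fold change was 1.54 ± 0.042 (SE; limma adjusted p = 2.15e-12, higher in 3 of 3 libraries). Vars lies on chromosome 17 from 35000907 to 35016329 (RefSeq, GRCm38.p6). Iars had 22.5, 22.2 and 21.7 FPKM in M-MF and 9.23, 9.27 and 9.37 FPKM in N-MF. Its groups did not overlap, and the fold change was 1.17 ± 0.0246 (adjusted p = 1.80e-13). Yars had 62.9, 65.8 and 64.6 FPKM in M-MF and 29.0, 29.6 and 28.5 FPKM in N-MF. The groups lay far apart here too, with a fold change of 1.12 ± 0.0254 (adjusted p = 3.58e-13). Rars, the arginyl enzyme, had 48.8, 48.0 and 48.3 FPKM in M-MF and 22.3, 22.1 and 22.4 FPKM in N-MF. Its groups did not overlap, and the fold change was 1.08 ± 0.0251 (adjusted p = 4.59e-13).

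Among the other cytosolic and dual genes, Gars changed by 1.08, Kars, the lysyl enzyme, by 0.98, and Dars, the aspartyl enzyme, by 0.96. Cars, Lars, Eprs, Farsb, Tars, Sars, Nars and Wars lay between 0.82 and 0.92. Eprs is a fused enzyme that charges both glutamyl and prolyl tRNAs, and Farsa and Farsb are the subunits of the cytosolic phenylalanyl enzyme. Farsa rose by 0.63 and Farsb by 0.87. Smaller rises than that of Farsb were also seen in Mars (0.68), Hars (0.52), Aars (0.47) and Qars (0.41), whose largest adjusted p was 4.88e-07.

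Among the mitochondrial genes, Rars2 rose by 0.86, Ears2 by 0.79, Nars2 by 0.51, Tars2 by 0.50, Pars2 by 0.45, Sars2 by 0.36 and Lars2 by 0.17. Their lower fellows were Aars2 (-0.32 ± 0.0444, adjusted p = 2.14e-05), Hars2 (-0.18), Cars2 (-0.16), Wars2 (-0.16) and Iars2 (-0.12). The fall of Wars2, the mitochondrial tryptophanyl synthetase, had an adjusted p of 0.0378 and that of Iars2 one of 0.0139. Leaving out M-MF replicate 1, M-MF replicate 3 or N-MF replicate 2 ended the call of Wars2, with adjusted p values of 0.0542, 0.143 and 0.160, as did using no filter (0.0629) and leaving out the 4 libraries numbered 3 (0.128). The call of Iars2 ended without N-MF replicate 3 (adjusted p = 0.0653). Fars2 (0.14), Mars2 (0.05), Vars2 (0.02) and Yars2 (-0.11) did not pass. Under each of the 3 other scalings Lars2 lost its call (0.086, 0.065 and 0.019 with equal sums, median-ratio scaling and quantiles) and Yars2 was called lower (-0.20, -0.21 and -0.28). With the library number as a block Fars2 passed (adjusted p = 0.0210).

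**Figure D2:**
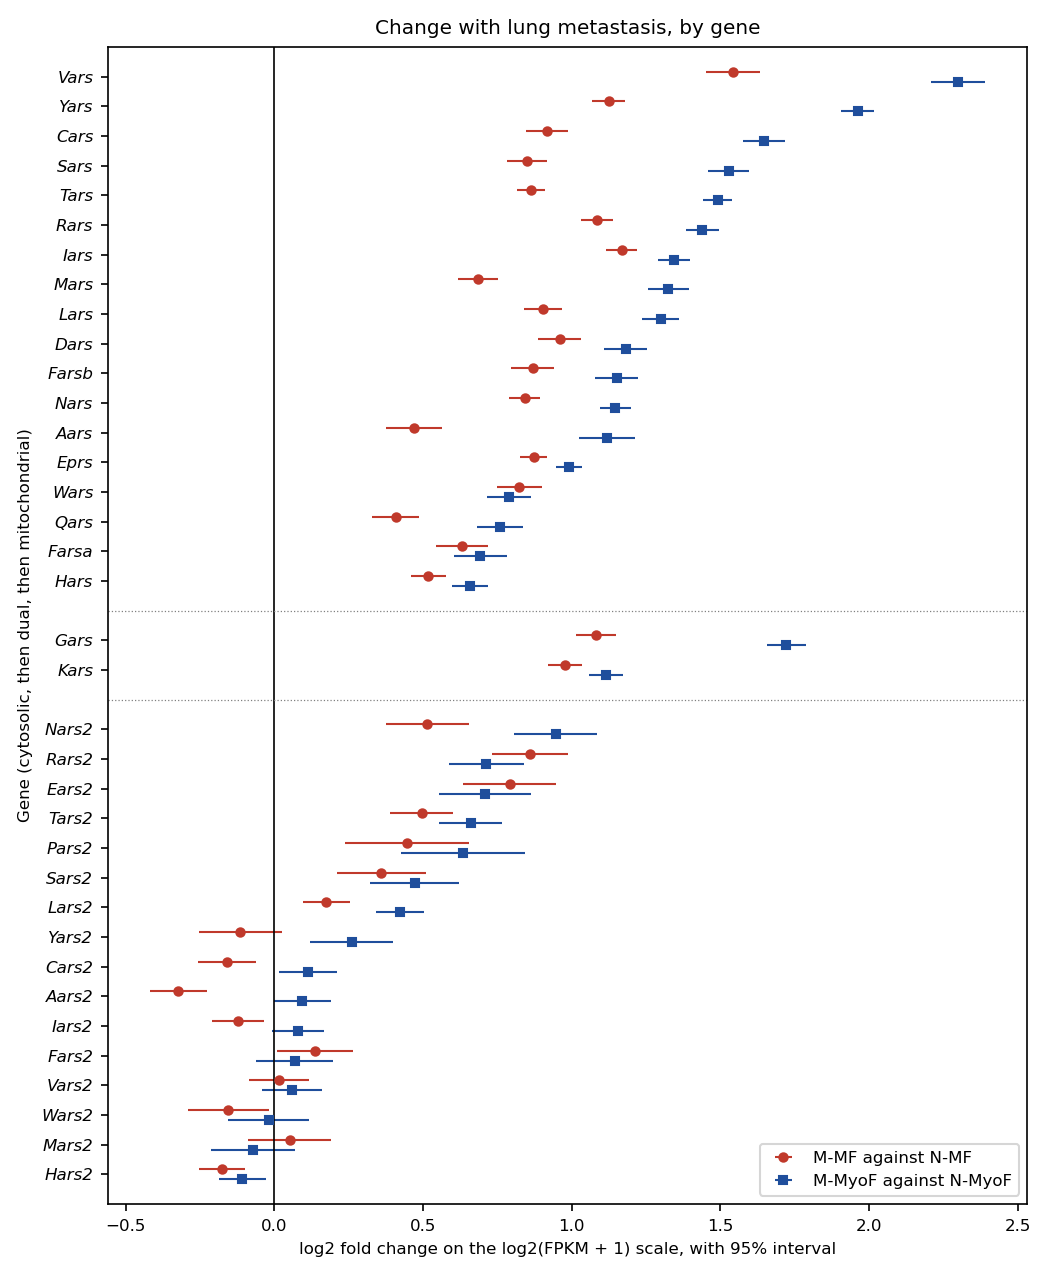
Log2 fold change on the log2(FPKM + 1) scale with its 95% interval for 36 of the 37 synthetase genes, M-MF against N-MF (circles) and M-MyoF against N-MyoF (squares), in the classes cytosolic, dual and mitochondrial from top to bottom. All 20 cytosolic and dual genes lie right of 0 in both comparisons, and the mitochondrial genes spread from -0.32 to 0.95.

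M-MyoF were set against N-MyoF to ask the same of the MyoF subgroup. All 18 cytosolic genes and both dual genes were again higher, with changes between 0.66 for Hars, the histidyl enzyme, and 2.30 for Vars. In all 30 members were higher and Hars2 was lower, where 49.1% of all genes were called higher and 31.6% lower. The median change was 1.24 for cytosolic genes and 0.26 for mitochondrial genes, beside 0.11 for all genes. On the log2(FPKM + 1) scale 15 members were at least 2-fold higher, 13 cytosolic and 2 dual, where 11.4% of all genes were. By the plain ratio of means 18 were, among them the mitochondrial genes Nars2 (2.18) and Ears2 (2.17). The values of 30 members did not overlap between the groups, against 82.2% of all genes. After quantile normalization 28 members were higher and 7 lower, all 7 of them mitochondrial.

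Vars again had the largest change. It had 68.4, 67.8 and 62.3 FPKM in M-MyoF and 13.2, 12.7 and 12.1 FPKM in N-MyoF. The M-MyoF mean was 5.24 times that of N-MyoF, and the log2 fold change was 2.30 ± 0.042 (SE; limma adjusted p = 4.48e-14, higher in 3 of 3 libraries). Yars had 94.1, 96.8 and 92.9 FPKM in M-MyoF and 23.1, 23.9 and 23.6 FPKM in N-MyoF. No value of either group came near the other, and the fold change was 1.96 ± 0.0254 (adjusted p = 2.23e-15). Yars lies on chromosome 4 from 129189734 to 129219240. Gars had 118, 117 and 115 FPKM in M-MyoF and 36.3, 34.3 and 33.5 FPKM in N-MyoF. The groups were far apart, with a fold change of 1.72 ± 0.0302 (adjusted p = 3.09e-14). Cars, the cysteinyl enzyme, had 42.9, 44.6 and 41.7 FPKM in M-MyoF and 13.5, 13.0 and 12.8 FPKM in N-MyoF. All M-MyoF values exceeded all N-MyoF values, with a fold change of 1.65 ± 0.0321 (adjusted p = 8.03e-14).

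The next largest rises were in Sars (1.53), Tars (1.49), Rars (1.44), Iars (1.34), Mars (1.32) and Lars (1.30). Dars, Farsb, Nars, Aars and Kars lay between 1.11 and 1.18. Eprs (0.99), Wars (0.79), Qars (0.76), Farsa (0.69) and Hars (0.66) were below 2-fold on this scale. Among mitochondrial genes the largest rise was that of Nars2 (0.95 ± 0.064, adjusted p = 1.80e-08), followed by Rars2, Ears2, Tars2, Pars2, Sars2 and Lars2, between 0.42 and 0.71. Yars2 (0.26) and Cars2 (0.11) were also called higher. Cars2 lost its call without M-MyoF replicate 1 (adjusted p = 0.0733), M-MyoF replicate 2 (0.116) or N-MyoF replicate 3 (0.159) and when the MF groups were left out of the model (0.0592), and its sign turned under each of the 3 other scalings. Yars2 lost its call under all 3 (adjusted p = 0.0825, 0.0510 and 0.212). Hars2, the mitochondrial histidyl enzyme, had 12.5, 12.7 and 11.97 FPKM in M-MyoF and 13.2, 13.0 and 14.1 FPKM in N-MyoF. Its fall of -0.11 ± 0.036 (adjusted p = 0.0148) was small, and it missed the threshold without M-MyoF replicate 3 (adjusted p = 0.0654) or N-MyoF replicate 3 (0.0742), and without the 4 libraries numbered 3 (0.227). Aars2, Iars2, Fars2, Vars2, Wars2 and Mars2 did not pass, with changes between -0.07 and 0.09. Under each of the 3 other scalings Mars2 (-0.21, -0.18 and -0.24) and Wars2 were called lower. With the library number as a block Iars2 passed (adjusted p = 0.0477).

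Setting each cytosolic enzyme beside the mitochondrial enzyme for the same amino acid gave 18 pairs, counting Eprs beside both Ears2 and Pars2, and both Farsa and Farsb beside Fars2. The log2 fold change of the cytosolic gene was the larger in 18 of 18 pairs in both subgroups. The 95% intervals of the pair did not overlap in 17 pairs in M-MF against N-MF and in 18 in M-MyoF against N-MyoF. The widest gap was that of Vars and Vars2, 1.53 in M-MF against N-MF and 2.24 in M-MyoF against N-MyoF. Because the added 1 FPKM shrinks changes of low genes, the plain ratios of means were compared too, and the cytosolic ratio was the larger in 17 pairs in each subgroup. The exception was Eprs beside Ears2. Eprs was 1.86 times and Ears2 2.40 times as high in M-MF as in N-MF, and Eprs was 2.03 times and Ears2 2.17 times as high in M-MyoF as in N-MyoF. The difference within a pair was not tested.

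The sums of the classes moved apart in the same way. Cytosolic and dual genes together had 957 to 975 FPKM in M-MF libraries and 509 to 524 FPKM in N-MF, and 1262 to 1293 FPKM in M-MyoF and 510 to 529 FPKM in N-MyoF. Mitochondrial genes together had 112 to 114 FPKM in M-MF and 97.3 to 99.9 FPKM in N-MF, and 132 to 137 FPKM in M-MyoF and 105 to 109 FPKM in N-MyoF. The groups did not overlap for either class within a subgroup. The ratio of means was 1.87 for the cytosolic and dual sum and 1.15 for the mitochondrial sum in MF, and 2.46 and 1.25 in MyoF. The FPKM sum of all genes also rose, with a ratio of means of 1.08 in MF and 1.14 in MyoF. As a share of that sum, the cytosolic and dual genes had a ratio of 1.73 in MF and 2.15 in MyoF. The share of the mitochondrial genes had a ratio of 1.07 in MF and 1.10 in MyoF. The cytosolic and dual sum was 8.53 to 8.58 times the mitochondrial sum in M-MF and 5.23 to 5.35 times in N-MF. In the other subgroup it was 9.45 to 9.61 times in M-MyoF and 4.83 to 4.91 times in N-MyoF.

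**Figure D3:**
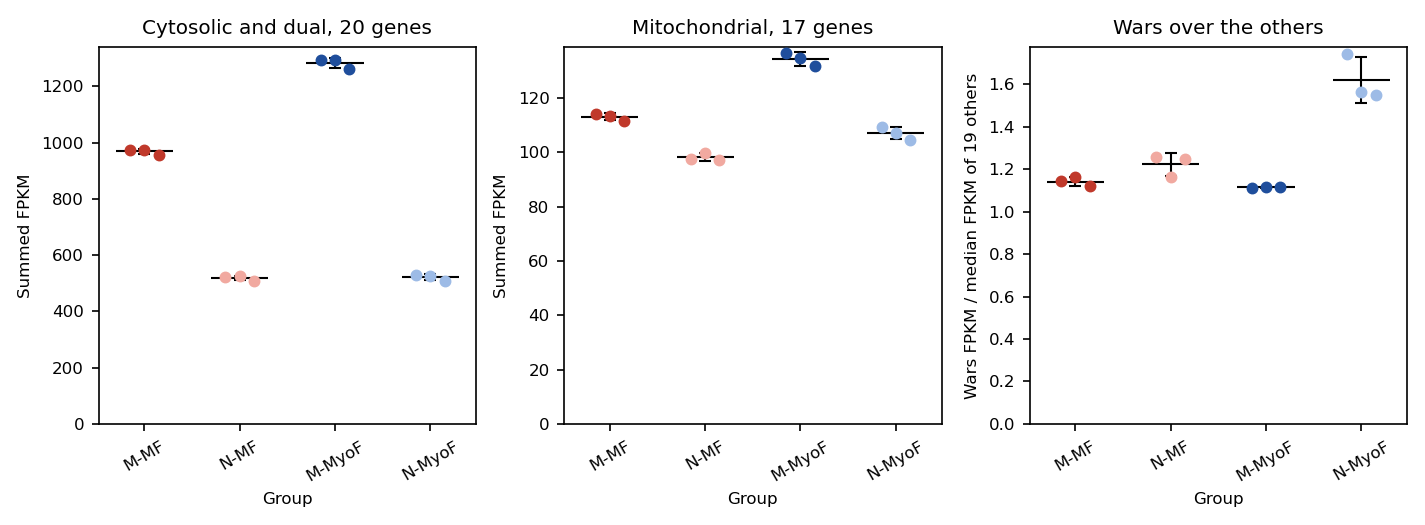
Summed FPKM of the 20 cytosolic and dual genes (left), summed FPKM of the 17 mitochondrial genes (middle), and Wars as a multiple of the median of the 19 other cytosolic and dual genes (right), by group, with 1 point a library, a line at the mean and bars of 1 SD. The M-MyoF cytosolic and dual sums lie between 1262 and 1293 FPKM, above those of the other 3 groups, and Wars reaches 1.55 to 1.75 times the median in N-MyoF.

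Wars had 52.2, 53.9 and 51.2 FPKM in M-MF, against 29.8, 28.5 and 29.2 FPKM in N-MF. In the other subgroup it had 66.1, 66.7 and 66.8 FPKM in M-MyoF, against 40.4, 37.4 and 36.6 FPKM in N-MyoF. All M values exceeded all N values of the same subgroup. The log2 fold change was 0.82 ± 0.0341 in M-MF against N-MF (limma adjusted p = 1.38e-10) and 0.79 ± 0.0341 in M-MyoF against N-MyoF (adjusted p = 1.82e-10). Wars lies on chromosome 12 from 108860030 to 108894175, where 24 bases at its edge are shared with the annotated span of Wdr25.

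Set against the other 19 cytosolic and dual genes, Wars ranked 15 of 20 by fold change in M-MF against N-MF, and their median was 0.87. The 95% interval of Wars, 0.75 to 0.90, lay below the intervals of 6 of them, above those of 4, and overlapped 9. In M-MyoF against N-MyoF it ranked 17 of 20 beside a median of 1.30, and its interval of 0.72 to 0.86 lay below those of 16 and overlapped those of Qars, Farsa and Hars. As a multiple of the median of the 19 others in the same library, Wars stood at 1.12 to 1.16 in M-MF and 1.16 to 1.26 in N-MF, and at 1.11 to 1.12 in M-MyoF and 1.55 to 1.75 in N-MyoF. The N-MyoF libraries thus held Wars furthest above its class, and the M-MyoF libraries held it close to where both MF groups did.

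Wars2 had 3.42, 3.51 and 3.11 FPKM in M-MF and 3.68, 4.18 and 3.67 FPKM in N-MF. It had 4.25, 3.82 and 4.11 FPKM in M-MyoF and 4.54, 4.02 and 3.84 FPKM in N-MyoF, where the groups overlapped. The change in MyoF was -0.02 ± 0.0627 (limma adjusted p = 0.787), with a 95% interval of -0.16 to 0.12. With equal sums, median-ratio scaling and quantiles it was called lower, at -0.18 (adjusted p = 0.0207), -0.15 (0.0467) and -0.21 (0.00764). Wars was 15.3 to 16.5 times Wars2 in M-MF and 6.83 to 8.10 times in N-MF, and 15.6 to 17.5 times in M-MyoF and 8.89 to 9.52 times in N-MyoF.

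The difference between the changes of the subgroups, that in MF minus that in MyoF, was negative for 24 members and called positive for none. Among all genes 38% were called lower and 26.4% higher in this contrast. The 24 were 16 cytosolic, both dual and 6 mitochondrial genes. The largest differences were those of Yars (-0.84 ± 0.0359, limma adjusted p = 7.72e-10), Vars (-0.76 ± 0.0593, adjusted p = 2.52e-07) and Cars (-0.73 ± 0.0454, adjusted p = 2.73e-08), whose rises were larger in M-MyoF against N-MyoF. Cars had 29.8, 30.7 and 30.5 FPKM in M-MF and 15.7, 15.9 and 15.1 FPKM in N-MF, a smaller gap than in MyoF. Wars (0.03 ± 0.0482, adjusted p = 0.552) and Farsa (-0.06, adjusted p = 0.351) were the cytosolic genes that did not pass, and the 95% interval of Wars was -0.07 to 0.14. After rescaling to equal sums the difference of Wars was 0.11 with an adjusted p of 0.0478, and over the alternatives it lay between -0.01 and 0.11. The median was -0.35 for cytosolic and -0.14 for mitochondrial genes, beside -0.06 for all genes. With the library number as a block Tars2 (-0.17) passed too, with an adjusted p of 0.0477.

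Between the subgroups of normal lung, 9 members were higher and 15 lower in N-MF than in N-MyoF, where 24.5% of all genes were called higher and 57.6% lower. This order of the subgroups depended on the scaling. Median-ratio scaling gave 27 higher and 1 lower, quantile normalization 23 and 5, and both moved the median of all genes to 0.03 from -0.21 as deposited. Of all genes, 5734 were higher and 4926 lower among 13237 tested with median-ratio scaling. With quantile normalization 5502 were higher and 5036 lower among 13269. Sars, the seryl enzyme, had 23.6, 24.7 and 23.2 FPKM in N-MF and 17.5, 18.5 and 17.3 FPKM in N-MyoF, with a fold change of 0.40 ± 0.0308 (limma adjusted p = 6.01e-08). Its groups did not overlap. Wars had the lowest value of all 37 members here, -0.37 ± 0.0341 (adjusted p = 3.74e-07), and was lower in N-MF under all alternatives, between -0.40 and -0.08. Gars, given above for the MyoF libraries, had 45.4, 45.9 and 44.0 FPKM in N-MF and was higher there by 0.37 ± 0.0302 (adjusted p = 1.24e-07).

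Between the subgroups of lungs with metastasis, 33 members were lower in M-MF than in M-MyoF and none was called higher, where 66% of all genes were called lower and 19.1% higher. Here too the split moved with the scaling, to 8 higher and 13 lower after median-ratio scaling and to 10 higher and 21 lower after quantile normalization. Of all genes, 5014 were higher and 5263 lower among 13237 tested with median-ratio scaling. With quantile normalization 4814 were higher and 5333 lower among 13269. Vars differed most, -0.73 ± 0.042 (limma adjusted p = 3.54e-09). Lars, the leucyl enzyme, had 31.1, 32.1 and 32.5 FPKM in M-MF and 49.2, 49.5 and 46.6 FPKM in M-MyoF, and its groups did not overlap (-0.59 ± 0.029, adjusted p = 7.93e-10). Yars differed by -0.55 ± 0.0254 (adjusted p = 4.35e-10). The median of all genes was -0.29 as deposited and -0.01 after median-ratio scaling.

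These comparisons share groups, so their counts are not independent of each other. Values are as deposited unless another scaling is named. With equal sums, with median-ratio scaling and with quantile normalization the median of all genes was -0.01, -0.03 and -0.10 in M-MF against N-MF, and -0.06, -0.03 and -0.10 in M-MyoF against N-MyoF. With quantile normalization 4394 genes were higher and 6337 lower in the MF comparison, and 4521 higher and 6404 lower in the MyoF comparison. All 20 cytosolic and dual genes were higher in both comparisons under each of the 23 alternatives, with class medians of 0.61 to 0.89 in MF and 1.01 to 1.27 in MyoF.

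The annotated spans of 8 members overlap another protein-coding gene, and overlaps with other kinds of gene were not searched. Whether reads were counted by strand is not given in the sources used, so reads in the shared stretch cannot be told apart. Mars shares 71 bases with Ddit3, Aars 3974 bases with Ddx19b and Farsb 2332 bases with Sgpp2. Hars and Hars2 share 4 bases, Iars2 shares 115 with Rab3gap2 and Rars2 shares 7 with Orc3.

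The non-enzyme proteins of the multisynthetase complex moved with its enzymes. All 8 enzymes of the complex (Eprs, Iars, Lars, Mars, Qars, Rars, Kars and Dars) and all 3 scaffold proteins were higher in M-MF and in M-MyoF. Aimp1 had 27.5, 29.1 and 31.8 FPKM in M-MF and 19.98, 20.1 and 20.2 FPKM in N-MF, and 35.8, 35.1 and 36.7 FPKM in M-MyoF and 18.6, 18.7 and 20.5 FPKM in N-MyoF. Aimp2 had 52.6, 56.3 and 52.3 FPKM in M-MF and 27.8, 27.3 and 27.2 FPKM in N-MF, and 69.3, 71.1 and 64.7 FPKM in M-MyoF and 26.8, 27.9 and 26.1 FPKM in N-MyoF. Neither gene overlapped between M and N. Eef1e1, which encodes the scaffold also called Aimp3, rose by 1.20 ± 0.046 in M-MF (limma adjusted p = 6.42e-11) and by 1.66 ± 0.046 in M-MyoF (adjusted p = 2.04e-12). Aimp1 rose by 0.53 and 0.87, and Aimp2 by 0.94 and 1.31. All 3 stayed higher in both comparisons under the 3 other scalings.

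Elongation factors take charged tRNAs to the ribosome. All 5 cytosolic ones rose in both comparisons, with medians of 0.59 in M-MF and 0.85 in M-MyoF. Eef1a1, which carries the tRNA, rose by 0.52 in M-MF and 0.85 in M-MyoF, and Eef2, which moves the ribosome along, by 0.29 and 0.37. The exchange factor subunits Eef1b2 (1.07 and 1.23), Eef1g (0.87 and 1.15) and Eef1d (0.59 and 0.67) rose as well. Of the mitochondrial factors Tsfm (0.65 and 0.93), Tufm (0.35 and 0.49) and Gfm1 (0.44 in both) rose in both. Gfm2 was at 0.07 in M-MF (limma adjusted p = 0.239) and was called higher in M-MyoF (0.12, adjusted p = 0.0487), a call lost under all 3 other scalings. Quantile normalization put Eef2 at 0.033 in M-MF (adjusted p = 0.130).

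Most known target genes of the integrated stress response were higher in both comparisons. Of 19 listed targets other than synthetases, 17 were higher and 2 lower in M-MF, with a median of 1.45, and 18 were higher and 1 lower in M-MyoF, with a median of 2.09. Asns, asparagine synthetase, had 78.8, 80.5 and 75.9 FPKM in M-MF and 5.36, 6.05 and 5.24 FPKM in N-MF, and 98.3, 100.3 and 95.9 FPKM in M-MyoF and 4.21, 4.41 and 3.79 FPKM in N-MyoF. It changed by 3.60 ± 0.0514 and 4.27 ± 0.0514. Psat1 and Phgdh are enzymes of serine synthesis. Psat1 rose by 3.54 in M-MF and 4.57 in M-MyoF, and Phgdh by 1.67 and 3.59. Trib3, a pseudokinase induced by stress, rose by 2.05 and 3.31. The members that went the other way, named after their values were seen, were Stc2 (-0.64) and Vldlr (-0.19) in M-MF and Vldlr (-0.91) in M-MyoF. Under the 3 other scalings 17 were higher and 2 lower in M-MF, and 17 were higher and 1 lower in M-MyoF.

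Most transcription factors of that response were lower at the RNA level. Of 6 listed, 4 were lower and 1 higher in M-MF and in M-MyoF, and under the 3 other scalings 4 were lower in M-MF and 5 in M-MyoF. Atf4 had 235, 230 and 232 FPKM in M-MF and 359, 359 and 347 FPKM in N-MF, and 385, 388 and 380 FPKM in M-MyoF and 548, 547 and 545 FPKM in N-MyoF. Every M value was below every N value of its subgroup, with changes of -0.61 ± 0.0168 in M-MF (limma adjusted p = 2.63e-12) and -0.51 ± 0.0168 in M-MyoF (adjusted p = 1.31e-11). Atf4 is known to be regulated through translation of its mRNA, which these data do not measure. Ddit3, which encodes CHOP and whose span meets that of Mars, fell by 0.60 in M-MF and by 0.91 in M-MyoF. Atf3 fell by 0.47 and by 1.15, and Nupr1 rose by 0.31 and 0.42.

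**Figure D4:**
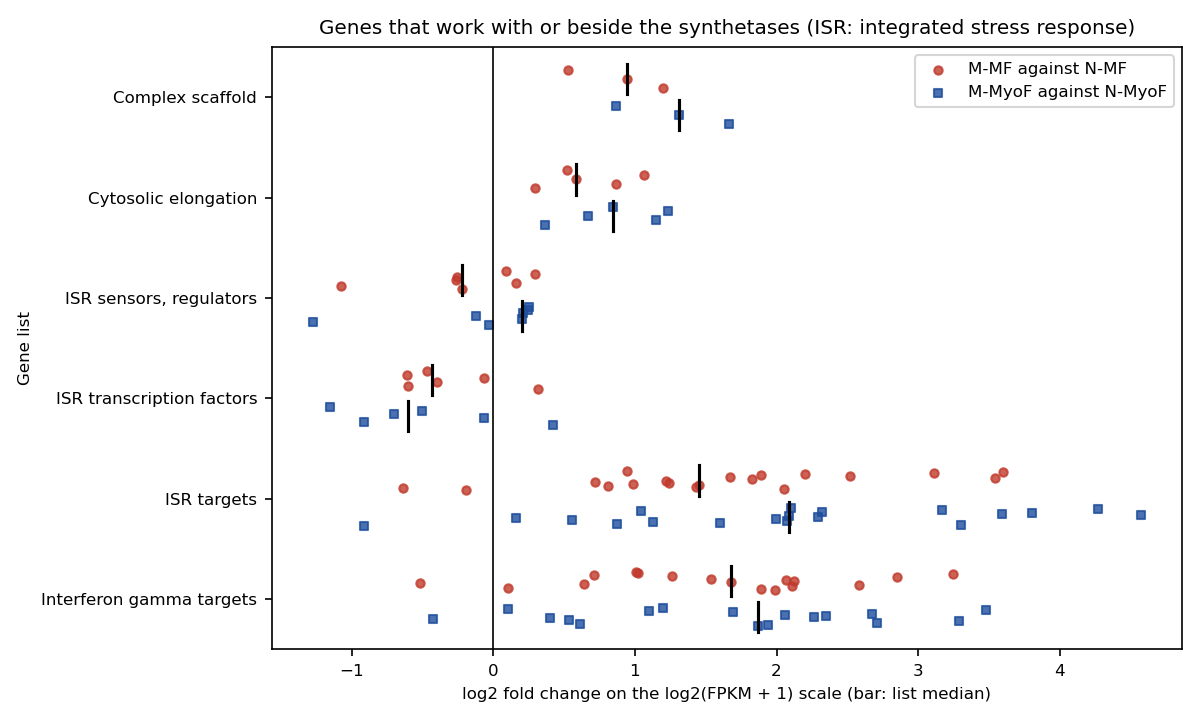
Log2 fold change on the log2(FPKM + 1) scale of genes in 6 lists (rows), M-MF against N-MF (circles) and M-MyoF against N-MyoF (squares), with 1 point a gene and a black bar at the list median. Targets of the integrated stress response have medians of 1.45 and 2.09, while its transcription factors have medians of -0.43 and -0.60.

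Interferon gamma targets, of which Wars is one, rose as well. Of 17 listed besides Wars, 15 were higher and 1 lower in M-MF, with a median of 1.68, and 16 were higher and 1 lower in M-MyoF, with a median of 1.87. Igtp, an interferon-induced GTPase, rose by 2.13 in M-MF and 2.26 in M-MyoF, and Gbp4, a guanylate-binding protein, by 2.85 and 2.67. The chemokine Cxcl9 rose by 3.24 and 3.48, and Ifi47 by 2.06 and 2.35. Irf1, named after its values were seen, was the gene that fell, by 0.52 and by 0.43. The rise of Wars, 0.82 and 0.79, was below the median of these targets in both subgroups. The 3 other scalings gave 15 higher and 1 lower in M-MF, and 15 higher and 1 to 2 lower in M-MyoF.

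Markers of cell division moved with the synthetases. All 12 proliferation markers were higher in both comparisons, and 11 to 12 were under the 3 other scalings. Their summed level was 227 to 236 FPKM in M-MF and 76.1 to 78.6 FPKM in N-MF, and 411 to 419 FPKM in M-MyoF and 133 to 135 FPKM in N-MyoF. Mesothelial markers summed to 241 to 246 FPKM in M-MF and 6.72 to 7.03 FPKM in N-MF, and to 206 to 213 FPKM in M-MyoF and 81.8 to 82.6 FPKM in N-MyoF. All 6 of them rose in both, 5 in M-MyoF under the 3 other scalings, and Lrrn4 and Upk1b were under 1 FPKM in N-MF. Neutrophil markers, given above, rose for 9 of 10 in M-MF and 10 of 10 in M-MyoF, with Elane and Ly6g under 1 FPKM in M-MF and N-MyoF and 6 of the 10 under 1 FPKM in N-MF. Endothelial markers summed to 194 to 197 FPKM in M-MF and 109 to 111 FPKM in N-MF, and to 423 to 432 FPKM in M-MyoF and 337 to 348 FPKM in N-MyoF. Of these 5 genes Cldn5 (1.002 and 0.38), Vwf (0.63 and 0.62) and Pecam1 (0.38 and 0.36) rose in M-MF and M-MyoF, Kdr fell by 0.32 and by 0.73, and Cdh5 was higher in M-MF (0.47) and lower in M-MyoF (-0.12). The part of dividing cells and of other cell types in the synthetase changes was not tested.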

How the data were processed

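Bulk polyA RNA of 12 libraries was extracted with Trizol, copied and amplified by SMART-seq2 and made into libraries with a transposon method, per the labels' protocols. The deposited values are FPKM from the authors, per the file headers, and carry 2 decimals. The genome build was GRCm38 per the submitters' processing notes, and aligner, counter and annotation were not given in the sources used here. Columns of no listed sample numbered 0. Depth is unknown, so no counting interval is given.

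Groups came from the sample titles. Genes that reached 1 FPKM in 3 or more libraries were analysed as log2(FPKM + 1) with limma 3.58.1 in R 4.3.3, as 4 group means in 1 model with a mean-variance trend, giving 5 contrasts. Benjamini-Hochberg adjustment ran over 13300 genes. The code was tested on simulated data. Intervals are at 95%. Tables and figures used Python 3.11.15, pandas 2.3.3, numpy 2.4.6 and matplotlib 3.10.9. Coordinates, gene spans and promoters are from RefSeq on GRCm38.p6.

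The members, lists, words and tests were chosen with earlier results of these data known. Values in every library are given for Wars and Wars2, for the 4 members with the largest change that passed and did not overlap in each M against N comparison, and for the top 3 in the other contrasts. From each list or role within a list, every gene is named where there are 5 or fewer, otherwise up to 4 with the smallest p. Others were named after their values were seen. Values of 1 member are not reported here, though counts and sums include it. Classes follow the known location of each enzyme.

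Deviations of same-numbered libraries from their group means correlated at 0.482 to 0.796 over 18 pairs, and those of differently numbered libraries at -0.683 to 0.38 over 36 pairs, across 1830 genes at 50 FPKM or more. The numbers were therefore taken as pairing the libraries, from the data and not from the labels, and a fit with the number as a block was run as an alternative. Values given without naming the block come from the fit that leaves this pairing out. Other alternatives were a pseudocount of 0.1 or 5, a filter of 5 FPKM or none, 3 scalings, the compared groups alone, each library left out in turn, the 4 libraries numbered 3 left out, and an adjusted p under 0.01. Running the scalings on the companion and marker lists was chosen after seeing the data.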

Additional observations from a re-analysis of the deposited data

Results flagged for a closer look

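For 24 synthetase genes the change in M-MF against N-MF differed from that in M-MyoF against N-MyoF by a test of the difference itself (limma, adjusted p under 0.05), and all 24 differences, MF minus MyoF, were negative. Among the cytosolic genes the log2 differences were -0.84 for Yars, -0.76 for Vars, -0.73 for Cars, -0.68 for Sars, -0.65 for Aars, -0.64 for Mars and -0.63 for Tars. They were -0.40 for Lars, -0.36 for Rars, -0.35 for Qars, -0.31 for Nars, -0.28 for Farsb and -0.22 for Dars. The smallest were -0.18 for Iars, -0.14 for Hars and -0.12 for Eprs. Of the dual genes Gars had -0.64 and Kars -0.14. After rescaling to equal sums 20 members were called lower, and Eprs (-0.041), Hars (-0.060), Kars (-0.058) and Iars2 (-0.13) were no longer among them. The mitochondrial genes were Nars2 at -0.43, Aars2 at -0.42, Yars2 at -0.38, Cars2 at -0.27, Lars2 at -0.25 and Iars2 at -0.20. Of these, Cars2 was called lower in M-MF and higher in M-MyoF, Aars2 and Iars2 were lower in M-MF and did not pass in M-MyoF, and Yars2 did not pass in M-MF and was higher in M-MyoF. Under each of the 3 other scalings Yars2 was instead called lower in M-MF and did not pass in M-MyoF. The other lists went both ways in this contrast. Neutrophil markers had a median of -3.24 with 9 of 10 lower, and proliferation markers -0.47 with 10 of 12 lower and 1 higher. Targets of the integrated stress response had -0.63 with 13 of 19 lower and 4 higher. Interferon gamma targets had -0.18 with 10 of 17 lower and 3 higher. Mesothelial markers had 2.71 with 6 of 6 higher, and epithelial markers 0.71 with 6 of 7 higher. Myofibroblast markers had 0.72 with 5 of 7 higher and 2 lower. The part of any of these in the synthetase differences was not tested. No library was checked for standing apart within a group, since groups held 3.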

How the results depend on the processing

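In all 5 contrasts with the library number as a replicate block, the counts stayed within 1.5 times those reported. The pairing changed the call of Fars2 in M-MF (0.14), Iars2 in M-MyoF (0.08) and Tars2 for the difference (-0.17), which then passed, and of no other member. Over the members in both M against N comparisons and their difference, 2427 results kept direction and call or passed in neither fit. The sign of those that passed in neither was not compared. Another 28 lost the call, 30 gained it, and 7 changed sign with a call in either fit. Between the subgroups, only named members were tallied one by one, and the counts below cover all. In M-MyoF against N-MyoF, Cars2 was -0.067 with equal sums, -0.038 with median-ratio scaling and -0.13 with quantile normalization. Quantile normalization also turned Vars2 (-0.13 in M-MF, -0.14 in M-MyoF), Iars2 (-0.12 in M-MyoF) and Fars2 (-0.19 in M-MyoF). The cause of these turns was not tested beyond the shift of all genes given above.

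Lower members in M-MF against N-MF numbered 3 with a filter of 5 FPKM, which tested 29 members, and 3 at an adjusted p under 0.01. Lower members in M-MyoF against N-MyoF numbered 3 with equal sums, 3 with median-ratio scaling, 7 with quantile normalization, 0 without the 4 libraries numbered 3 and 0 at an adjusted p under 0.01. Equal sums gave 2 higher (Wars and Rars2) and 20 lower members for the difference of effects and 1 higher in M-MF against M-MyoF. In M-MF against M-MyoF median-ratio scaling gave 8 higher and 13 lower, and quantile normalization 10 and 21. In N-MF against N-MyoF they gave 27 higher and 1 lower, and 23 and 5. The counts of all genes under these scalings are given above with the subgroup comparisons.

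Leaving out 1 library at a time gave 28 to 29 higher and 4 to 5 lower members in M-MF against N-MF, and 29 to 31 and 0 to 1 in M-MyoF against N-MyoF. For the difference it gave 0 to 1 and 24 to 25, in N-MF against N-MyoF 8 to 9 and 13 to 17, and in M-MF against M-MyoF 0 to 1 and 30 to 33. Depth is unknown, so counting error could not be given for any member.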

Other observations

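Genes that check or complete tRNA charging were mixed in M-MF. Of 10 tested, 4 were higher and 2 lower in M-MF, and 8 were higher and none was called lower in M-MyoF. Ptrh2, a peptidyl tRNA hydrolase, rose by 0.66 in M-MF and 0.93 in M-MyoF, and Dtd2, a deacylase that removes wrongly charged amino acids, by 0.49 and 0.38. Its relative Dtd1 was at -0.01 in M-MF (limma adjusted p = 0.891) and rose by 0.44 in M-MyoF, and the editing protein gene Aarsd1 was at -0.06 (adjusted p = 0.286) and rose by 0.57. Mitochondria make glutaminyl tRNA by amidation, and of the subunits of that enzyme Gatb rose by 0.36 and 0.58, Gatc was lower in M-MF (-0.24) and higher in M-MyoF (0.11), and Qrsl1 was at 0.07 (adjusted p = 0.199) and rose by 0.30. Mtfmt, the methionyl tRNA formyltransferase, did not pass in M-MF (-0.03) or in M-MyoF (0.12). Under the 3 other scalings Dtd1 and Aarsd1 were called lower in M-MF and Gatc was negative in M-MyoF. Tarsl2, a further threonyl synthetase gene outside the rule, was below the expression filter.

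Sensors and regulators of the integrated stress response had no common direction. Of 7, 3 were higher and 4 lower in M-MF, and 4 were higher and 2 lower in M-MyoF. The 3 other scalings gave 1 higher and 4 to 5 lower in M-MF, and 0 to 2 higher and 3 lower in M-MyoF, where Eif2ak3 (0.21) and Gcn1 (0.21) lost their calls under each. Ppp1r15a, the phosphatase subunit that ends the response, fell by 1.08 in M-MF and by 1.27 in M-MyoF. Ppp1r15b fell by 0.22 in M-MF and was at -0.03 in M-MyoF (limma adjusted p = 0.395). The kinases Eif2ak1 (0.09 and 0.25) and Eif2ak2 (0.30 and 0.25) were called higher in both, but Eif2ak1 in M-MF was -0.016 with equal sums, -0.040 with median-ratio scaling and -0.10 with quantile normalization. In M-MyoF both kinases missed the threshold with equal sums and with quantile normalization, where Eif2ak1 was -0.0057, and Ppp1r15b was called lower under all 3 of these scalings. Eif2ak4, the kinase that senses uncharged tRNA, was named after its values were seen and fell by 0.26 and by 0.12.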
